A study of Rattus norvegicus with 22 samples.

Results

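Collagen chain genes were taken as the rows of the expression table whose gene name has the form of Col, a type number, the letter a and a chain number, such as Col4a1. This gave 44 of 32623 rows and 43 symbols, since Col23a1 has 2 gene IDs. They were split into 10 fibrillar chains, 8 basement membrane chains and 26 other chains. RNA was sequenced from epididymal fat and gastrocnemius muscle of male Sprague Dawley rats, 3 weeks old at the start and made obese on high-fat feed for 8 weeks before the treatments. All groups therefore share trophic obesity, and no lean rats are part of these libraries. For 4 weeks the rats were kept in normal air (normoxia) or in air with less oxygen (hypoxia), and either stayed quiet in their cages or ran on a treadmill for 1 h on 5 days a week. The groups are normoxia quiet (C), normoxia exercise (CE), hypoxic quiet (H) and hypoxia exercise (HE), with F for fat and M for muscle before the letter. There were 3 libraries each of FC and FCE, 2 each of FH and FHE, and 3 of each muscle group. Rats running in normal air reached a speed of 25 m/min and those in hypoxia 20 m/min, so HE against CE, and the interaction of oxygen and exercise, compare speed as well as oxygen.

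Collagens are proteins of the extracellular matrix built from a trio of chains wound into a triple helix. Fibrillar chains (types I, II, III, V and XI among them) form the fibres that give connective tissue its strength, while type IV chains form the sheet of the basement membrane that wraps adipocytes, muscle fibres and vessels. Other types coat or link fibres, make beaded filaments around cells (type VI) or sit in the cell membrane. In fat and muscle, fibroblasts and related stromal cells make most of the fibrillar chains, and vessels, adipocytes and muscle cells add basement membrane.

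Of all counts in fat, 10.1% to 44.7% fell on mitochondrially encoded genes, with the highest shares in both FHE libraries, and of those in muscle 89.4% to 97.4%. Levels are therefore given as counts per 1000000 counts of nuclear genes (CPM of nuclear counts). Nuclear counts were 20060028 to 36162561 per fat library and 841153 to 4334813 per muscle library. A count of 3, taken as the limit that a count of 0 allows, stood for 0.0830 to 0.150 CPM in fat and 0.692 to 3.57 CPM in muscle, for counting error only. All 9 adipocyte markers had counts in each fat library, and the summed level was 20480 to 55789 CPM. The 10 muscle fibre markers summed to 44415 to 97860.5 CPM in muscle. In fat they summed to 27757 CPM in FHE3 and 1572 CPM in FCE2, against 5.01 to 64.9 CPM in the other 8 libraries, so counts for these groups are also given without FHE3 and FCE2. In bulk tissue, fewer cells of a type and less RNA per cell cannot be told apart.

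Col25a1 had no count in any library, and 8 of the 44 rows did not pass the filter on low counts in fat (Col2a1, Col9a1, Col10a1, Col19a1, Col24a1, Col25a1, Col26a1 and 1 of the 2 rows of Col23a1). The filter left 36 rows for the tests in fat and 28 in muscle. The chains Col1a2 and Col21a1 were not analysed here.

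Per length, on the scale of TPM recomputed over nuclear genes, Col3a1 was the highest chain in both tissues, with means of 903 TPM in fat and 415 TPM in muscle. Col3a1 encodes the chain of type III collagen, a fibrillar collagen of soft tissue. In fat it was followed by Col4a1 at 589 TPM, Col6a2 at 389 TPM, Col1a1 at 304 TPM and Col5a3 at 302 TPM. In muscle it was followed by Col1a1 at 141 TPM, Col6a2 at 97.7 TPM, Col6a1 at 63.5 TPM and Col4a1 at 40.1 TPM. This order is that of the means and differed between libraries: Col3a1 was the highest chain in all 12 muscle libraries and in 7 of the 10 fat libraries, and Col4a1 in the other 3 (FC1, FCE1 and FHE3), while in FH3 the TPM ratio of Col4a1 to Col1a1 was 0.861, against 1.27 to 5.23 in the other fat libraries.

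Of all collagen counts in fat, fibrillar chains took 44.9% ± 5.1 (SD, n = 10), basement membrane chains 35.8% ± 7.4 (SD, n = 10) and other chains 19.4% ± 4.6 (SD, n = 10). In muscle, fibrillar chains took 65.7% ± 6.2 (SD, n = 12) and other chains 20.7% ± 3.3 (SD, n = 12). The share of basement membrane chains was 8.58% to 21.7% in the muscle libraries and 20.6% to 46.5% in the fat libraries. These ranges met only at FH3 (20.6%), the fat library of lowest share, and MC2 (21.7%), the muscle library of highest share.

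Summed over all chains, collagen stood at 8665, 14257 and 12212 CPM in FC1, FC2 and FC3, and at 10453, 20087 and 10899 CPM in FCE1, FCE2 and FCE3. The sum was 15415 and 11851 CPM in FH1 and FH3. It was 6466 and 5937 CPM in FHE2 and FHE3. Both FHE libraries lay below the other 8 fat libraries, while FC, FCE and FH overlapped. In muscle the sums were 2770.3, 2053 and 3814 CPM in MC, 3438, 3228 and 5661 CPM in MCE, 5045, 3975 and 3759 CPM in MH, and 4791, 2808 and 3495 CPM in MHE. All muscle groups overlapped.

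**Figure D1:**
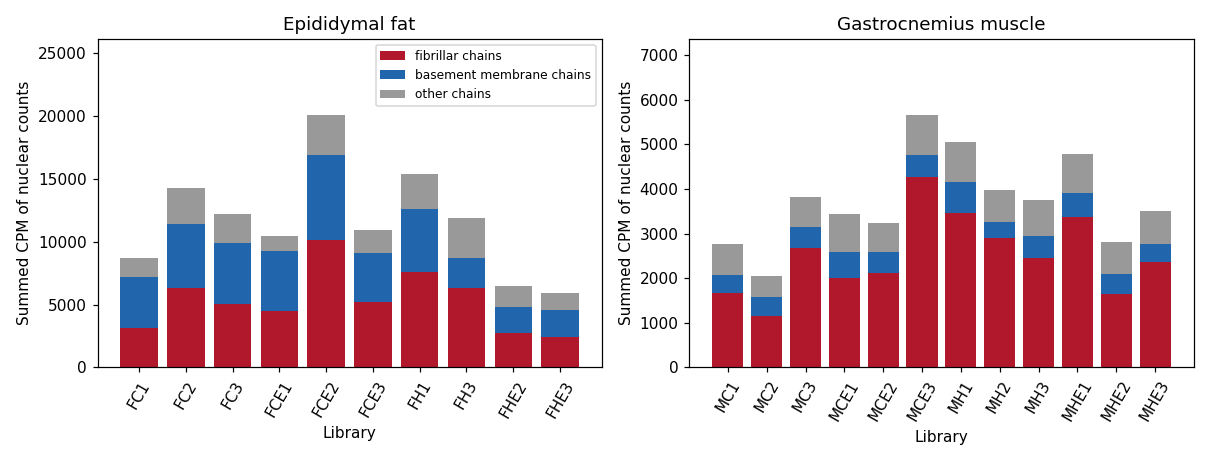
Summed CPM of nuclear counts of the collagen chains in each library (stacked bars, 1 per library), coloured by chain class, in fat (left) and muscle (right, with its own vertical scale). The FHE libraries reach 6466 and 5937 CPM and are the lowest of the fat libraries, and basement membrane chains make up 20.6% to 46.5% of each fat bar.

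The first question was how fat differed after exercise in hypoxia, where HE was set against H (exercise added to hypoxia) and against CE (hypoxia added to exercise). Most chains had lower values in FHE, but no chain was called at an adjusted p under 0.05 by edgeR in either comparison, nor was any other gene (0% of 16364 genes in both). For HE against H, 5 of 36 tested chains had a log2 fold change above 0, with a median of -0.95, against -0.07 over all tested genes. For HE against CE, 3 of 36 were positive and the median was -0.96, against -0.05 over all tested genes. Col4a6 and Col9a3 had no counts in either FHE library, and with these set to the bound that 3 counts allow the medians were -0.90 and -0.91. At an unadjusted p under 0.05, 12 of 36 chains were lower and 0 higher for HE against H, where 9.42% of all tested genes were lower and 7.41% higher. For HE against CE, 12 of 36 were lower and 0 higher, where 6.56% of all tested genes were lower and 4.80% higher. These comparisons share the FHE libraries.

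The values of the FHE group lay wholly below FH for 20 of 36 chains, as they did for 28.9% of all tested genes, and wholly below FCE for 17 of 36 chains, as for 14.2% of all tested genes. Without FHE3 and FCE2 the counts wholly below were 25 for FH (41.1% of all tested genes) and 24 for FCE (36.0%), so that shares with fewer libraries are higher for all genes as well. The medians were then -1.30 and -0.94, against -0.12 and -0.09 over all tested genes, and 9 and 5 chains were lower at an unadjusted p under 0.05 (9.93% and 5.86% of all tested genes). Without FHE2 the latter were 5 and 6 (4.001% and 2.97%), and without FHE3 they were 7 and 8 (10.2% and 7.57%). DESeq2, run on the same counts, called 8 chains lower for HE against H (3.03% of all tested genes were called lower), namely Col3a1, Col4a2, Col5a1, Col5a2, Col6a6, Col12a1, Col14a1 and Col16a1. It called 7 lower for HE against CE (1.70% of all tested genes), which were Col3a1, Col4a2, Col5a1, Col5a2, Col12a1, Col16a1 and Col18a1.

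**Figure D2:**
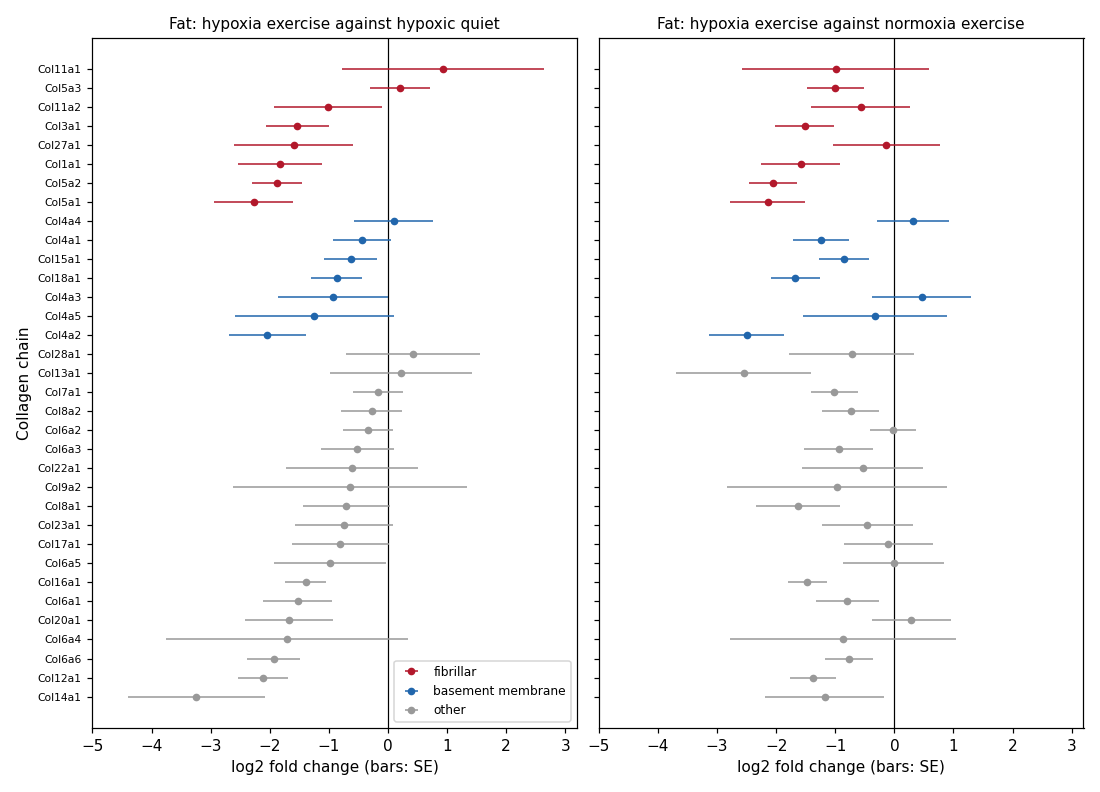
Log2 fold change of each tested chain in fat (points, bars are SE) for hypoxia exercise against hypoxic quiet (left) and against normoxia exercise (right), from edgeR, ordered within each class by the left panel. Col4a6 and Col9a3, with no counts in FHE, are not drawn. Most points lie left of 0, while Col5a3 and Col4a4 lie at 0.21 and 0.10 in the left panel.

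Among fibrillar chains, Col3a1 was at 1323, 3065 and 2379 CPM in FC, at 1842, 5200.0 and 2848 CPM in FCE, at 3987 and 3905 CPM in FH and at 1341 and 1034 CPM in FHE. Both FHE values were below all FCE and FH values and, of FC, FC1 was the only FC value not above both. The log2 fold change was -1.54 for HE against H (SE 0.53, edgeR adjusted p = 0.237) and -1.52 for HE against CE (SE 0.50, edgeR adjusted p = 0.354). Col1a1, which encodes the main chain of type I collagen, was at 455, 1428 and 1000.1 CPM in FC, at 563, 2341 and 914 CPM in FCE, at 2077 and 1399.8 CPM in FH and at 420.0 and 458 CPM in FHE. Its FHE values were again below FCE and FH and met the range of FC at FC1. The differences were -1.83 on the log2 scale for HE against H (SE 0.71, edgeR adjusted p = 0.260) and -1.58 for HE against CE (SE 0.67, edgeR adjusted p = 0.424).

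Type V collagen sits inside type I fibrils and sets their width. Its 3 chains had unlike log2 fold changes in fat for HE against H, while in FHE all 3 lay below FCE. Col5a1 was at 97.8, 209.6 and 236 CPM in FC, at 69.6, 293 and 103 CPM in FCE, at 199 and 205 CPM in FH and at 27.7 and 45.0 CPM in FHE. Col5a2 was at 200.1, 268 and 336 CPM in FC, at 177, 367 and 167 CPM in FCE, at 239 and 268 CPM in FH and at 53.9 and 64.5 CPM in FHE. For both chains FHE lay below the other 8 fat libraries. For HE against H the log2 fold change was -2.27 for Col5a1 (SE 0.67, edgeR adjusted p = 0.211) and -1.88 for Col5a2 (SE 0.42, edgeR adjusted p = 0.202). For HE against CE it was -2.15 for Col5a1 (SE 0.63, edgeR adjusted p = 0.321) and -2.06 for Col5a2 (SE 0.41, edgeR adjusted p = 0.217).

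Col5a3, the third type V chain, was at 1090.4, 1358 and 1088 CPM in FC, at 1812, 1926 and 1153 CPM in FCE, at 1116 and 492 CPM in FH and at 886 and 823 CPM in FHE. Its FHE values were below FC, FCE and FH1, and above FH3 alone. The log2 fold change was 0.21 for HE against H (SE 0.51, edgeR adjusted p = 0.860) and -0.997 for HE against CE (SE 0.48, edgeR adjusted p = 0.467). The ratio of Col5a3 to Col5a1 in TPM was 29.6 and 17.0 in FHE, 10.3, 5.99 and 4.33 in FC, 24.0, 6.15 and 10.3 in FCE, and 5.21 and 2.24 in FH. FHE2 had the highest ratio, FCE1 came next and FHE3 after it, and no test was made between chains.

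The promoter windows of these 3 chains are shown because their log2 fold changes for HE against H were unlike. No link between windows and values was tested. RefSeq windows of 300 bases, 250 before and 50 after the gene start, matched 34 of the 43 symbols (build GRCr8, while the expression table uses coordinates of Ensembl release 99). Windows were searched on both strands for the CCAAT box, for the GC box GGGCGG, for the hypoxia response core ACGTG and for the TATA box TATAAA, and capitals mark every match, those on the opposite strand included. In this order, the shares of all RefSeq promoters that hold them were 37.5%, 33.1%, 19.3% and 14.2%. The windows are chr3:31606630-31606929 on the plus strand for Col5a1, chr9:55090102-55090401 on the minus strand for Col5a2, and chr8:27625899-27626198 on the minus strand for Col5a3.
Col5a1: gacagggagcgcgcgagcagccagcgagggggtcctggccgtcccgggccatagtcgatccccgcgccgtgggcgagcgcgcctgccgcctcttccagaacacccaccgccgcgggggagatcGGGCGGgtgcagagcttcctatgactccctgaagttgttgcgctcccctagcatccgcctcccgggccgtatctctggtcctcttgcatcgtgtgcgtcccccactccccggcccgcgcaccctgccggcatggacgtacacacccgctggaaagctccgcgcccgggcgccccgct
Col5a2: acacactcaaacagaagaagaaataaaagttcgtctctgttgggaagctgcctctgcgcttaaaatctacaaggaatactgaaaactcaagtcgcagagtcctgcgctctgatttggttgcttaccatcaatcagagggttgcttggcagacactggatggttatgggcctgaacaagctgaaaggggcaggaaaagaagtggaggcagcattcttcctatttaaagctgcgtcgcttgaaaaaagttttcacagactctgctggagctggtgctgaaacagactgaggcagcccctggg
Col5a3: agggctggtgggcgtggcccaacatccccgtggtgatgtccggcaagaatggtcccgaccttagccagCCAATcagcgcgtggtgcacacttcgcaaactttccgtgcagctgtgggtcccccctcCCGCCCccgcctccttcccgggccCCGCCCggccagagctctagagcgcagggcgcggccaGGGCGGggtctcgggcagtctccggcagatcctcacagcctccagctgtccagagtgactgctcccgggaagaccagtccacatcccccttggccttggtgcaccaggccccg
Col5a1 holds 1 GGGCGG, Col5a3 holds 3 GGGCGG and 1 CCAAT, and Col5a2 holds none of the motifs searched. The GC content is 72.0% for Col5a1, 47.7% for Col5a2 and 69.0% for Col5a3, against a median of 51.7% over all RefSeq promoters.

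**Figure D3:**
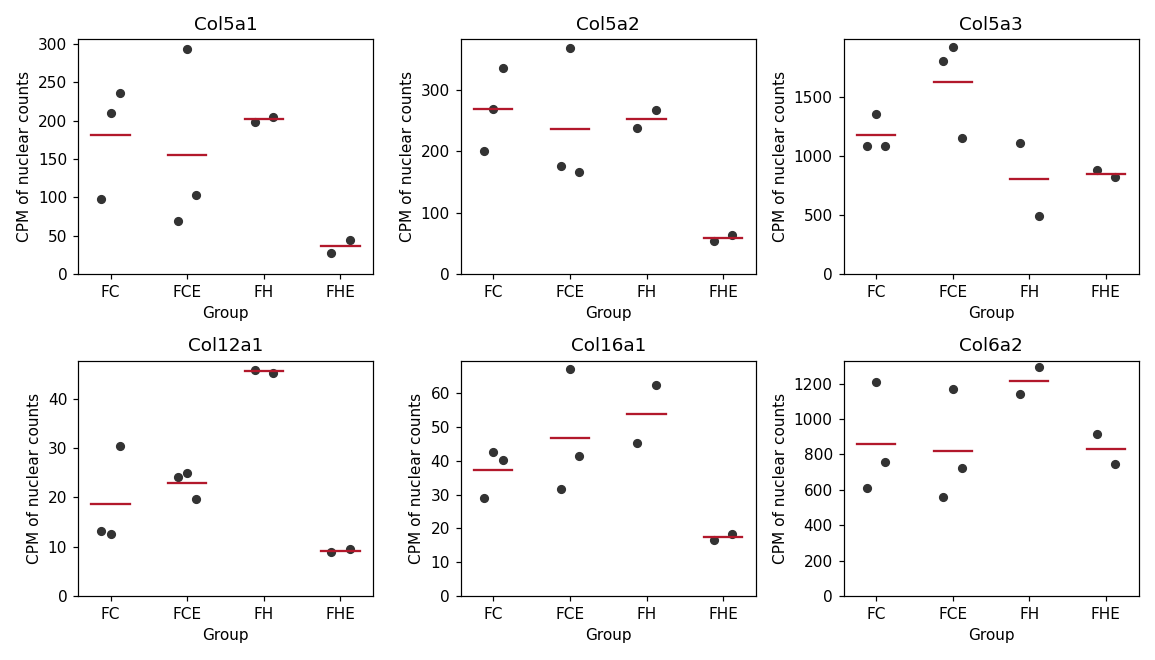
CPM of nuclear counts (vertical axis, from 0) of 6 chains in the fat libraries by group, with points for libraries and lines for group means. Col5a1, Col5a2, Col12a1 and Col16a1 are lowest in both FHE libraries, whereas Col5a3 (886 and 823 CPM) and Col6a2 (915 and 748 CPM) lie within the range of the other libraries.

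The main basement membrane chains are Col4a1 and Col4a2, which wind together in a type IV trimer. Col4a1 was at 2296, 2769.8 and 2533 CPM in FC, at 3326, 4194 and 2412 CPM in FCE, at 2972 and 1363 CPM in FH and at 1455 and 1478 CPM in FHE. FHE lay below FC and FCE and inside the range of FH. Col4a2 was at 885, 1013 and 1147 CPM in FC, at 698, 1496 and 461 CPM in FCE, at 1026 and 445 CPM in FH and at 132 and 196 CPM in FHE. Here FHE lay below all other fat libraries. For HE against H the log2 fold change was -0.44 for Col4a1 (SE 0.50, edgeR adjusted p = 0.662) and -2.04 for Col4a2 (SE 0.65, edgeR adjusted p = 0.223). For HE against CE it was -1.24 for Col4a1 (SE 0.47, edgeR adjusted p = 0.399) and -2.50 for Col4a2 (SE 0.63, edgeR adjusted p = 0.282).

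The ratio of Col4a1 to Col4a2 in TPM was 1.95, 2.05 and 1.66 in FC, 3.58, 2.11 and 3.92 in FCE, 2.18 and 2.30 in FH, and 8.25 and 5.66 in FHE. Both FHE ratios were above those of the other 8 fat libraries. In the muscle libraries the ratio ran from 2.42 to 5.04, with the groups overlapping. The ratio depends on the gene model that the counts and lengths refer to. In the table Col4a2 spans 51198 bases on the minus strand of chromosome 16 (83387364 to 83438561), and 83600 bases lie between its start and that of Col4a1 (83522162 to 83632153, plus strand). In RefSeq GRCr8 Col4a2 spans 135849 bases and its start lies 76 bases from that of Col4a1, so reads of the first exons of Col4a2 may fall outside the model counted, which was not tested.

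The window of Col4a1 (GRCr8, chr16:84885347-84885646, plus strand) is shown because it holds the start of Col4a2 on the other strand as well, so both genes begin inside it.
Col4a1: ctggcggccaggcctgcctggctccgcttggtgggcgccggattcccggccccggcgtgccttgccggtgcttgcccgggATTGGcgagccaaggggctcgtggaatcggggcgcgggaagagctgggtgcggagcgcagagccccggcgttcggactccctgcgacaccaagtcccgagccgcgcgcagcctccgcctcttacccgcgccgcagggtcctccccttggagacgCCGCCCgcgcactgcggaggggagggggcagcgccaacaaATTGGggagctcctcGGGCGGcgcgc
Capitals mark 2 CCAAT and 2 GGGCGG matches, counted on both strands, and neither ACGTG nor TATAAA was found.

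**Figure D4:**
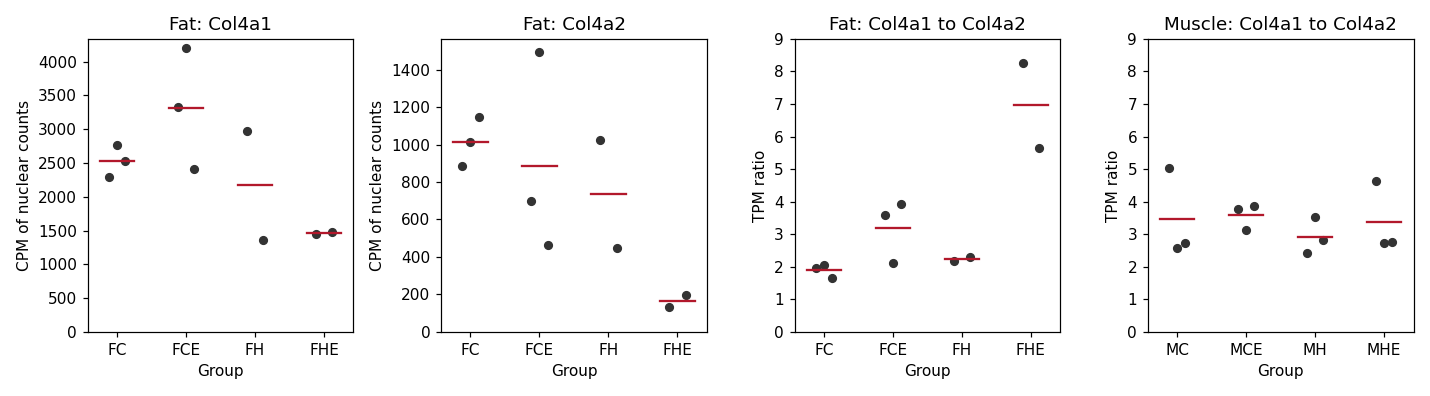
CPM of nuclear counts of Col4a1 and Col4a2 in the fat libraries (left panels), and the TPM ratio of Col4a1 to Col4a2 in fat and in muscle (the other two panels, same scale), with points for libraries and lines for group means. The ratio is 8.25 and 5.66 in FHE, at most 3.92 in the other fat libraries and 2.42 to 5.04 in muscle.

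Col4a4, a type IV chain of a less widespread trimer, was at 43.3, 24.3 and 90.3 CPM in FC, at 24.6, 34.5 and 105 CPM in FCE, at 45.0 and 109 CPM in FH and at 71.2 and 63.9 CPM in FHE. Its groups overlapped, and the log2 fold change for HE against H was 0.10 (SE 0.67, edgeR adjusted p = 0.952). Col15a1 and Col18a1 encode the multiplexins, whose ends release the antiangiogenic fragments restin and endostatin. Col15a1 was at 402, 768 and 524 CPM in FC, at 382, 469.7 and 482 CPM in FCE, at 571 and 286 CPM in FH and at 240.1 and 266 CPM in FHE. Col18a1 was at 393, 523 and 456 CPM in FC, at 354, 527 and 389 CPM in FCE, at 364 and 183 CPM in FH and at 143 and 131 CPM in FHE. For both genes FHE was below the other groups. The log2 fold change of Col18a1 was -1.68 for HE against CE (SE 0.42, edgeR adjusted p = 0.281) and -0.87 for HE against H (SE 0.43, edgeR adjusted p = 0.335). That of Col15a1 was -0.85 for HE against CE (SE 0.42, edgeR adjusted p = 0.478).

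Among the other chains, Col12a1 had the smallest p for HE against H. It encodes a fibril-associated collagen that binds to the surface of type I fibrils. It was at 13.1, 12.5 and 30.5 CPM in FC, at 24.2, 25.01 and 19.7 CPM in FCE, at 46.0 and 45.4 CPM in FH and at 8.92 and 9.44 CPM in FHE. FH was above and FHE below every other fat library. The log2 fold change was 1.14 for H against C (SE 0.36, edgeR adjusted p = 0.825), -2.12 for HE against H (SE 0.42, edgeR adjusted p = 0.202) and -1.38 for HE against CE (SE 0.38, edgeR adjusted p = 0.295).

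Col16a1, another fibril-associated chain, was at 29.0, 42.7 and 40.2 CPM in FC, at 31.8, 67.1 and 41.5 CPM in FCE, at 45.2 and 62.4 CPM in FH and at 16.5 and 18.4 CPM in FHE. FHE was below the other 8 libraries, with log2 fold changes of -1.39 for HE against H (SE 0.35, edgeR adjusted p = 0.202) and -1.47 for HE against CE (SE 0.33, edgeR adjusted p = 0.273). Col14a1, of the same family, was at 73.7, 36.6 and 357 CPM in FC, at 8.93, 54.3 and 69.0 CPM in FCE, at 89.1 and 377 CPM in FH and at 13.8 and 25.1 CPM in FHE. FC3 and FH3 stood far above the rest. Its log2 fold change for HE against H was -3.24 (SE 1.16, edgeR adjusted p = 0.243). Of the 7 fibril-associated chains tested in fat, 0 had a positive log2 fold change for HE against H and 7 for H against C.

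Type VI collagen makes beaded filaments next to basement membranes, and Col6a1, Col6a2 and Col6a3 are its common chains. Col6a1 was at 304, 681 and 482 CPM in FC, at 181, 645 and 243 CPM in FCE, at 617 and 821 CPM in FH and at 201 and 225 CPM in FHE. Col6a2 was at 613, 1212 and 759 CPM in FC, at 559, 1171 and 723 CPM in FCE, at 1139.8 and 1294 CPM in FH and at 915 and 748 CPM in FHE. Col6a3 was at 366, 729 and 565 CPM in FC, at 327, 1170.1 and 636 CPM in FCE, at 775 and 423 CPM in FH and at 482 and 279 CPM in FHE. FHE was below FH without overlap for Col6a1 and Col6a2, and overlapped with FH for Col6a3. The log2 fold changes for HE against H were -1.52 for Col6a1 (SE 0.58, edgeR adjusted p = 0.256), -0.34 for Col6a2 (SE 0.43, edgeR adjusted p = 0.701) and -0.52 for Col6a3 (SE 0.62, edgeR adjusted p = 0.684). Col6a6, a less abundant type VI chain, was at 12.1, 6.94 and 13.3 CPM in FC, at 6.26, 13.1 and 12.8 CPM in FCE, at 19.3 and 40.2 CPM in FH and at 5.58 and 7.27 CPM in FHE. FH was above all other fat libraries. Its log2 fold change was 1.21 for H against C (SE 0.39, edgeR adjusted p = 0.856) and -1.93 for HE against H (SE 0.45, edgeR adjusted p = 0.202).

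Genes of collagen assembly were read from lists beside the chains, and edgeR called no member of these lists in these 2 fat comparisons. Of 20 genes of collagen folding and modification, 3 had a positive log2 fold change for HE against H with a median of -0.49. The smallest p among them was that of Colgalt1, a collagen galactosyltransferase (-1.04 on the log2 scale, SE 0.30, edgeR adjusted p = 0.208). For HE against CE, 4 of 20 were positive with a median of -0.41, and Sparc, a collagen-binding matrix protein, had -2.23 (SE 0.52, edgeR adjusted p = 0.273) and Serpinh1, the collagen chaperone HSP47, had -1.12 (SE 0.32, edgeR adjusted p = 0.298). Of 15 laminins, nidogens and other basement membrane partners, 0 were positive for HE against H (median -1.05) and 0 for HE against CE (median -1.07), and Nid2, a nidogen that links laminin to type IV collagen, had -1.40 (SE 0.37, edgeR adjusted p = 0.203) and -1.45 (SE 0.35, edgeR adjusted p = 0.276). Of 6 genes of propeptide cleavage, 0 were positive for HE against H (median -0.71), among them Adamts2, the procollagen N-proteinase (-1.31, SE 0.41, edgeR adjusted p = 0.220). Of 11 genes of collagen breakdown, 2 were positive (median -0.73), with Timp4, an inhibitor of matrix metalloproteinases, at 1.62 (SE 0.45, edgeR adjusted p = 0.206). Of 8 collagen receptors, 3 were positive for HE against H (median -0.59), and Itga1, a chain of a collagen-binding integrin, had -2.24 (SE 0.77, edgeR adjusted p = 0.237). Of 8 fibril-binding proteoglycans 1 was positive (median -0.58), while of 14 genes of the TGF-beta axis 8 were positive (median 0.08).

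Some cell type markers moved beside these values. The 11 fibroblast and adipose progenitor markers summed to 10197.5 to 12390.3 CPM in FC, 8198 to 10092.5 CPM in FCE, 13992.5 to 16612 CPM in FH and 6953 to 9152 CPM in FHE, with none at 0 in any library. FHE and FH did not overlap, and FHE and FCE did. All 11 had negative log2 fold changes for HE against H (median -0.74), and 4 were positive for HE against CE (median -0.44). The 10 mesothelial markers summed to 162 to 1150 CPM in FH, 82.1 to 118 CPM in FHE and 19.4 to 49.6 CPM in FCE, so that FHE lay below FH and above FCE. The 9 macrophage markers summed to 2223 and 3699 CPM in FH and to 2021 and 1309 CPM in FHE, and the 7 T cell markers to 132 and 377 CPM in FH and to 58.9 and 51.5 CPM in FHE. Both sums were lower in FHE than in FH without overlap, and in FHE and FCE they overlapped. Endothelial markers summed to 1260.0 to 1694 CPM in FHE and 1173 to 1299 CPM in FH. Adipocyte markers summed to 40431 to 41946 CPM in FHE, inside the ranges of FCE and of FH (46836 CPM in FH1 and 20480 CPM in FH3). Schwann cell and nerve markers, mostly S100b, summed to 2192 to 2458 CPM in FHE. This was below FCE (4494 to 6890 CPM) and inside the range of FH (1899 to 4369 CPM). Smooth muscle and pericyte markers summed to 789 CPM in FHE2, 2509.5 CPM in FHE3 and 1089 to 1298 CPM in FH, but Des, which muscle fibres make as well, gave 1575 CPM of the sum in FHE3. Without Des the sums were 701 and 935 CPM in FHE and 1031 and 1209.99 CPM in FH, below FH in both FHE libraries. Gene length moved with the HE against H contrast as well, and less with HE against CE. Split into eighths by the length implied by the deposited TPM, the median log2 fold change of all tested genes for HE against H was 0.34 in the shortest eighth and -0.35 in the longest, where 26 of the tested chains lie with a median of -1.13. For HE against CE the medians were 0.10 and -0.12 over all tested genes, and -0.97 for the 26 chains. In the read locations that the paper gives, the share of intronic reads among fat libraries was lowest in both FHE libraries and highest in FH3. The parts of these markers, of gene length and of intronic reads in the collagen values were not tested.

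For normoxia exercise against normoxia quiet in fat (CE against C), edgeR called 0 chains (0% of all tested genes), and 18 of 36 had a positive log2 fold change with a median of 0.01. At an unadjusted p under 0.05, 1 chain was higher and 1 lower (3.04% and 1.99% of all tested genes). Col7a1, the chain of anchoring fibrils, was at 2.83, 2.57 and 3.81 CPM in FC and at 5.99, 4.40 and 5.03 CPM in FCE. FCE was above FC without overlap, which 4.25% of all tested genes were, and the log2 fold change was 0.82 (SE 0.35, edgeR adjusted p = 0.923). Col17a1, a transmembrane collagen of epithelial anchoring, was at 3.79, 21.8 and 5.70 CPM in FC and at 1.301, 5.10 and 3.11 CPM in FCE. The groups overlapped, with a log2 fold change of -1.67 (SE 0.68, edgeR adjusted p = 0.923).

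For hypoxic quiet against normoxia quiet in fat (H against C), edgeR again called 0 chains (0% of all tested genes), and 20 of 36 were positive with a median of 0.31. At an unadjusted p under 0.05, Col12a1 and Col6a6 were higher and none was lower (2.40% and 2.35% of all tested genes). FH lay above FC without overlap for 7 chains (Col3a1, Col6a5, Col6a6, Col12a1, Col16a1, Col20a1 and Col22a1), as for 14.2% of all tested genes, and below for Col18a1, as for 4.81%. All 7 fibril-associated and all 6 type VI chains tested had positive log2 fold changes, with medians of 1.08 and 0.78. Of 8 fibrillar chains 4 were positive (median 0.29), of 8 basement membrane chains 2 (median -0.27), of 3 transmembrane chains 1 (median -0.96) and of 4 short-chain, anchoring fibril and remaining chains 0 (median -0.84). No test was made between these families. Among marker sums without overlap between FC and FH, only that of epididymis and testis was lower in FH (2.05 to 3.28 CPM in FC, 0.867 to 0.984 CPM in FH), from Spink8 alone. Higher in FH were those of mesothelium (14.3 to 20.4 CPM in FC, 162 to 1150 CPM in FH), macrophages (1095 to 1868 CPM and 2223 to 3699 CPM) and fibroblasts and adipose progenitors (10197.5 to 12390.3 CPM and 13992.5 to 16612 CPM). Of the last sum, Gsn alone gave 9248, 7101 and 7230 CPM in FC and 13784 and 8850 CPM in FH, which overlap. Taken singly, only Dpp4 of this list lay above FC without overlap (4.70 to 22.5 CPM in FC, 24.3 and 90.2 CPM in FH). The part of these markers in the chain values was not tested. DESeq2 called no chain in CE against C or H against C in fat (0.391% and 0.929% of all tested genes). The medians turned on single libraries: for CE against C the median was 0.39 with 27 of 36 positive without FC3 and -0.17 without FCE2, and for H against C it was 0.03 without FC1 and 0.04 without FH3.

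In muscle, where nuclear counts were fewer, edgeR called 0 of 28 tested chains in each of the 5 treatment comparisons and in the test over 4 treatments. The share of all tested genes called was 0.00805% for CE against C and for HE against H, 0.0403% for H against C and 0% for HE against CE. For CE against C and for H against C, 21 of 28 chains were positive, with medians of 0.48 and 0.45 against 0.00 over all tested genes. At an unadjusted p under 0.05, 3 chains were higher and 1 lower in H against C (5.83% and 2.59% of all tested genes), and 2 were higher in CE against C (1.93%). These comparisons share the MC libraries. The chains at an unadjusted p under 0.05 and higher in H against C were 1 without MH1 (5.52% of all tested genes) and 5 without MC1 (5.42%), and in CE against C they were 0 without MCE3 (1.66%) and 6 without MCE2 (1.82%), while the medians stayed at 0.27 or above with any 1 library left out. In both comparisons of MHE (with H and with CE) the medians were near 0, at -0.11 and -0.12, with 0 and 1 chains at an unadjusted p under 0.05 (3.74% and 3.58% of all tested genes), and both medians changed sign within the fits that left out 1 library (-0.22 to 0.11 and -0.22 to 0.04).

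Col5a1 was at 44.5, 17.4 and 52.2 CPM in MC, at 61.7, 66.8 and 58.7 CPM in MCE, at 127, 68.3 and 89.2 CPM in MH and at 96.9, 62.2 and 68.6 CPM in MHE. MC lay below all 9 other muscle libraries, on counts of 18 to 221 reads in MC and 75 to 296 in MH. The log2 fold change was 1.25 for H against C (SE 0.32, edgeR adjusted p = 0.248) and 0.68 for CE against C (SE 0.32, edgeR adjusted p = 0.9998), and DESeq2 called this chain alone for H against C (0.853% of all tested genes were called) and none for CE against C (0.0483%), HE against H (0.0564%) or HE against CE (0.113%). Col3a1 was at 1222, 679.6 and 1559 CPM in MC, at 1258, 1566 and 2224 CPM in MCE, at 2462, 2177 and 1679.8 CPM in MH and at 2326, 872 and 1231 CPM in MHE. MH lay above MC without overlap, and the log2 fold change for H against C was 0.85 (SE 0.36, edgeR adjusted p = 0.538). Col6a2 was at 277, 167 and 241 CPM in MC, at 364, 289 and 355 CPM in MCE, at 355, 293 and 328 CPM in MH and at 322, 310.2 and 244 CPM in MHE. MCE and MH lay above MC, with log2 fold changes of 0.55 for CE against C (SE 0.20, edgeR adjusted p = 0.9998) and 0.48 for H against C (SE 0.21, edgeR adjusted p = 0.538). MH was above MC without overlap for 5 of 28 chains, as for 8.22% of all tested genes.

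Some muscle chains did not share this direction. Col8a2, a short-chain network collagen, was at 9.45, 19.4 and 25.3 CPM in MC, at 15.1, 13.8 and 21.2 CPM in MCE, at 8.85, 6.46 and 11.9 CPM in MH and at 11.7, 6.18 and 11.1 CPM in MHE. MC and MH overlapped, and the log2 fold change for H against C was -1.08 (SE 0.44, edgeR adjusted p = 0.521). Col11a2, a fibrillar chain best known from cartilage, was at 6.67, 5.81 and 8.51 CPM in MC, at 8.17, 5.51 and 11.6 CPM in MCE, at 5.75, 11.996 and 13.1 CPM in MH and at 14.5, 19.2 and 15.4 CPM in MHE. MHE lay above the other 9 muscle libraries, on counts of 25 to 56 reads, and the log2 fold change for HE against CE was 0.95 (SE 0.44, edgeR adjusted p = 0.997).

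Col1a1 ranged in muscle from 270.3 CPM (MC1) to 1777 CPM (MCE3), with overlap of all groups. Col4a1 was at 167, 223 and 239 CPM in MC, at 262, 231 and 225 CPM in MCE, at 270.3, 167 and 214 CPM in MH and at 218, 191 and 192 CPM in MHE. MHE lay below MCE without overlap, and all other pairs of groups overlapped. MHE lay wholly below MCE for 3 of 28 chains (Col4a1, Col8a1 and Col8a2), as for 4.72% of all tested genes. It lay wholly above MCE for 1 chain, Col11a2, as for 4.82% of all tested genes. Col14a1 was at 105, 68.7 and 114 CPM in MC, at 63.2, 83.3 and 118 CPM in MCE, at 81.8, 101 and 91.5 CPM in MH and at 152, 83.5 and 151 CPM in MHE. Its groups overlapped, with a log2 fold change of 0.50 for HE against H (SE 0.30, edgeR adjusted p = 0.99999).

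Of the assembly lists in muscle, 13 of 18 genes of folding and modification were positive for H against C (median 0.50), and 7 were higher at an unadjusted p under 0.05, as were 5.83% of all tested genes. Plod3, a lysyl hydroxylase of collagen, had 1.61 (SE 0.40, edgeR adjusted p = 0.220) and P4ha2, a prolyl hydroxylase subunit, had 1.63 (SE 0.54, edgeR adjusted p = 0.403). Of 13 basement membrane partners 12 were positive (median 0.46), with Agrn, the proteoglycan agrin of the neuromuscular junction, at 1.15 (SE 0.27, edgeR adjusted p = 0.182). Of 9 fibril-binding proteoglycans 3 were positive (median -0.43), and Bgn, which encodes biglycan, had -1.14 (SE 0.25, edgeR adjusted p = 0.152). Of 8 markers of tendon and fascia, connective tissue around the muscle, 0 were positive for H against C (median -1.68). They summed to 479 to 1231 CPM in MC and 130.1 to 541 CPM in MH, with overlap. Fibroblast markers summed to 4630.4 to 7690 CPM in MC and 6551 to 7637 CPM in MH. Their parts in the collagen values were not tested.

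The interaction of oxygen and exercise was called for no chain by edgeR in either tissue (0% of all tested genes), while DESeq2 called Col12a1 alone in fat (lower, as 0.0917% of all tested genes) and no chain in muscle (0.105%). The test over 4 treatments gave 8 of 36 chains in fat and 1 of 28 in muscle at an unadjusted p under 0.05 (14.3% and 5.32% of all tested genes). At an unadjusted p under 0.05 edgeR gave it as lower for 9 of 36 chains in fat (3.15% of all tested genes) and for 2 of 28 in muscle (2.17%). The smallest p in fat was that of Col12a1 (-2.52 on the log2 scale, SE 0.53, edgeR adjusted p = 0.943). The difference of each contrast between fat and muscle, tested in 1 edgeR fit of all 22 libraries, was called for 0 of 36 chains in every contrast (0% of all tested genes). At an unadjusted p under 0.05 the HE against H contrast was lower in fat than in muscle for 9 chains (5.05% of all tested genes) and higher for 0, and HE against CE was lower for 7 (3.89%) and higher for 0. For H against C it was lower for 1 (3.61%), and for CE against C for 0 (1.98%).

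Fat was then set against muscle. Over all 22 libraries with treatment as a covariate, edgeR called 20 of 36 chains, 15 higher in fat and 5 higher in muscle, where 54.3% of all tested genes were called (31.8% higher in fat and 22.5% higher in muscle), so the share of chains called was near that of all tested genes. The median log2 fold change of fat over muscle was 0.57 for the chains and 0.18 for all tested genes. Col4a6 counts among the 15, but it had no counts in muscle and a mean of 0.502 CPM in fat, under the muscle limit of 3 counts. Its fitted change depends on the prior count and no bound can be given, and with it set to no change the median is 0.38. For Col9a2, among the 5, the call was lost in 14 of the 22 fits that leave out 1 library, and in 1 more it did not pass the filter on low counts, while the other 19 calls held in all 22.

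Leaving out Col4a6, the chains with the largest called differences toward fat were Col5a3 at 4.09 (SE 0.24, edgeR adjusted p = 8.09e-12), Col4a2 at 3.71 (SE 0.34, edgeR adjusted p = 6.65e-09), Col4a1 at 3.52 (SE 0.19, edgeR adjusted p = 2.94e-12), Col18a1 at 2.63 (SE 0.26, edgeR adjusted p = 1.75e-08) and Col6a3 at 2.63 (SE 0.22, edgeR adjusted p = 1.94e-09). Col5a3 ranged from 492 to 1926 CPM in fat (median 1103) and from 29.6 to 109 CPM in muscle (median 71.6). Col4a1 ranged from 1363 to 4194 CPM in fat (median 2472) and from 167 to 270.3 CPM in muscle (median 220.2). The tissues did not overlap for either. The partner chains of Col5a3 differed less, with 1.13 for Col5a1 (SE 0.35, edgeR adjusted p = 0.00934) and 1.64 for Col5a2 (SE 0.28, edgeR adjusted p = 3.29e-05), and the fibrillar chain Col3a1 had 0.75 (SE 0.24, edgeR adjusted p = 0.0112). Col1a1 was not called (0.72, SE 0.34, edgeR adjusted p = 0.0835).

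Toward muscle the largest was Col22a1, the collagen of the myotendinous junction where muscle fibres meet tendon. It ranged from 0.0997 to 1.97 CPM in fat (median 0.811) and from 3.93 to 34.5 CPM in muscle (median 12.6), without overlap, and its log2 fold change was -4.05 (SE 0.46, edgeR adjusted p = 1.82e-07). Col11a2 followed at -3.03 (SE 0.35, edgeR adjusted p = 2.39e-07), with 0.479 to 3.10 CPM in fat and 5.51 to 19.2 CPM in muscle. Col4a3, a type IV chain, had -1.89 (SE 0.41, edgeR adjusted p = 0.000565), and Col7a1 had -1.73 (SE 0.27, edgeR adjusted p = 1.31e-05). Of the type IV chains, Col4a1 and Col4a2 were thus called toward fat and Col4a3 toward muscle. Col4a6 was called toward fat as well, but without counts in muscle and with no bound on its change. Col4a4 (0.17, SE 0.22, edgeR adjusted p = 0.531) and Col4a5 (-0.24, SE 0.46, edgeR adjusted p = 0.682) were not called. Both tissues also differed in the share of nuclear counts held by muscle fibre transcripts, whose part in these values was not tested.

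**Figure D5:**
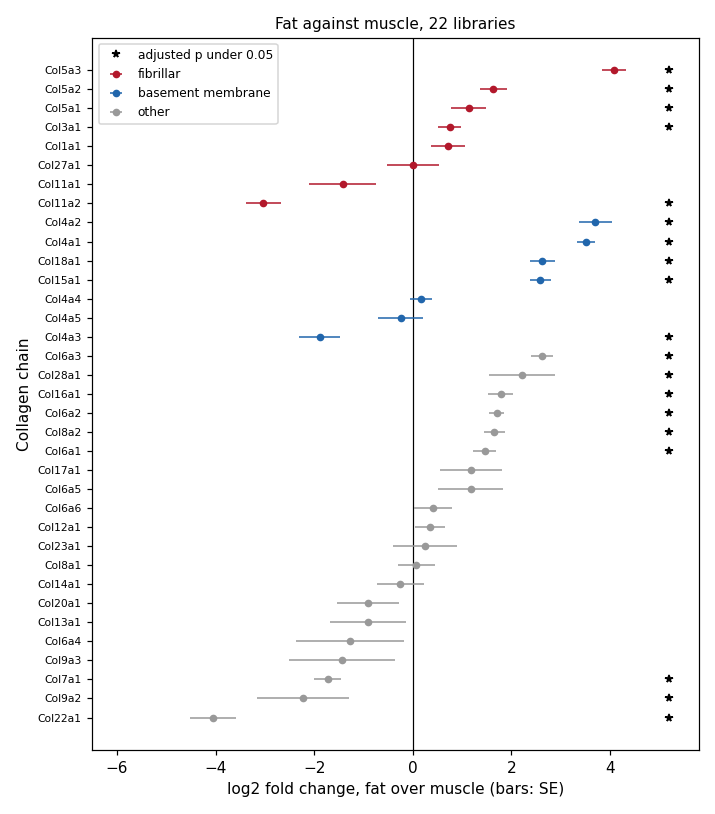
Log2 fold change of fat over muscle for each tested chain (points, bars are SE) from the edgeR fit of 22 libraries, coloured by class, with stars at an adjusted p under 0.05. Col4a6, with no counts in muscle, is not drawn. Col5a3 (4.09) and the chains Col4a1 and Col4a2 (3.52 and 3.71) lie farthest toward fat, and Col22a1 (-4.05) farthest toward muscle.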

How the data were processed

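Epididymal fat (10 libraries) and gastrocnemius muscle (12 libraries) were profiled by RNA-seq with a stranded mRNA kit. After FastQC and Trimmomatic, the authors used HISAT2 for alignment to Ensembl release 99 and deposited raw read counts per gene beside TPM. The counting tool and its strand setting are not given in the sources used here. The deposited TPM served only for ratios between chains, levels per length and implied gene lengths, rescaled over nuclear genes, and 22 columns of FPKM were not used. The paper counts as many rats as libraries. Whether fat and muscle libraries of the same number come from the same rat is not settled. P-values measure the spread between these libraries, and the comparison of tissues took them as unrelated, except with the replicate block.

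Levels are counts per 1000000 counts of nuclear genes, with the 37 mitochondrially encoded genes left out of the total. Total counts were 31449793 to 44334313 per fat library and 27149905 to 43834953 per muscle library. Tests used the deposited counts of all genes with edgeR 4.0.16 (R 4.3.3): TMM, filterByExpr, the quasi-likelihood F test and Benjamini-Hochberg adjustment over all genes tested, at an adjusted p of 0.05. The tissues had separate fits with a mean for every group. Fat and muscle were compared over 22 libraries with treatment as a covariate. Scripts were tested on simulated data. Alternatives were DESeq2 1.42.0, other filters, mitochondrial genes left out before scaling, a replicate block, an Mt-atp6 term and each library left out in turn. The differences between tissues, the trend with gene length and the counts without single libraries were added after seeing the data.

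Members, gene lists and tests were chosen with earlier results of these data known. Values per library follow a rule: chains called in a treatment comparison, the 3 highest per class and tissue, up to 3 of smallest p per comparison with a mean of at least 1 CPM, and for the tissues the 5 of largest called change each way. Other chains, such as partners in a trimer, were named after their values were seen. Of 188 list genes, 179 matched by symbol, 3 through the reference and 6 not at all. Promoter windows and motifs are from RefSeq (GRCr8).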

Additional observations from a re-analysis of the deposited data

How the results depend on the processing

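Under the alternatives run, single fold changes were recomputed only for chains chosen by smallest p or by largest called change between tissues. Those of other chains, such as Col1a1, Col3a1, Col4a1, Col4a2 and Col5a3 in the fat treatment comparisons, were not recomputed. None of the recomputed fold changes changed direction. Medians over the chains near 0 did, with single libraries left out: for CE against C in fat from 0.01 to -0.17 without FCE2, and in muscle for HE against H from -0.11 to 0.11 without MH1 and 0.04 without MHE3, and for HE against CE from -0.12 to 0.04 without MCE3. DESeq2 in place of edgeR called 8 chains for HE against H, 7 for HE against CE and 1 for the interaction in fat, and 1 for H against C in muscle, where edgeR called 0 in each. The cause was not tested. With each library left out in turn, edgeR called 0 to 0 chains in every treatment comparison, 15 to 16 chains higher in fat and 4 to 6 higher in muscle. Leaving out a library of FH or FHE leaves a group of 1 library, which is then assumed to vary like the other groups. A filter of at least 5 CPM in 2 libraries, which takes out chains of low level, left 24 chains and 1 call higher in muscle. On the scale of nuclear TPM, other chains took 24.3% of collagen in muscle, against 20.7% of counts. With replicate numbers as a block, edgeR called 0 chains in every treatment comparison. For the tissues the block was treatment and number together, over the 20 libraries with such a partner in the other tissue. It takes partners as pairs, and gave 15 chains higher in fat and 4 higher in muscle. The share of all tested genes called between tissues, 54.3% in the main fit, is not given for these other settings. Libraries of the same treatment and number in fat and muscle deviated together with r of -0.10 to 0.19 (over 0.1 in 7 of 10 pairs). Those of the same number across treatments did so with -0.59 to 0.52 within fat (8 of 12) and -0.19 to 0.23 within muscle (2 of 18). Of 20 libraries, 14 correlated best with their own number in the other tissue. Within a tissue, the own number was best for 5 of 10 libraries in fat and 7 of 12 in muscle. No level for random pairs was computed, so whether fat and muscle libraries of the same number share a rat is not settled. In muscle 3 counts stand for up to 3.57 CPM, which limits values of low chains.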

Other observations

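Libraries of 1 fat group differed in some chains more than the groups did. Col4a5, a type IV chain, was at 58.4 CPM in FC3, 27.6 CPM in FCE3 and 50.9 CPM in FH3, against 3.05 to 9.37 CPM in the other 7 fat libraries. Col14a1 was at 357 CPM in FC3 and 377 CPM in FH3, against 8.93 to 89.1 CPM elsewhere in fat. Col4a3 was at 6.68 CPM in FC3 and 7.12 CPM in FH3, against 0.545 to 2.18 CPM in the other 8. Smooth muscle and pericyte markers summed to 4352 CPM in FC3 and 2582 CPM in FCE3, and to 1298 CPM in FH3 and 1089 CPM in FH1. Mt-atp6 took 2.20% to 3.53% of mitochondrial counts in FC3, FCE1, FCE3 and FH3. It took 12.8% to 17.6% in the other fat libraries, both FHE libraries among them. The parts of these markers and of the Mt-atp6 share in these values were not tested.

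Among the chains of type VI, the TPM ratio of Col6a1 to Col6a2 was 0.27 and 0.36 in FHE, 0.39 in FCE1, 0.41 in FCE3 and 0.60 to 0.77 in the other fat libraries. No test was made between chains.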
